A study of Mus musculus with 6 samples.

Results

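Genes for chaperones and for the protein translocation machinery of the endoplasmic reticulum were examined in RNA bound to tagged ribosomes of mouse cortex. The set held 41 genes, of 18193 genes that the arrays name with a feature of their own, and 39 of the 41 (of 11821 genes in all) passed the limit of intensity described below. The members were chosen by a list of symbols, and the list was drawn up from measured values of these arrays: the third array of the Glt25d2 line against the other 2 of that line, and the difference between the 2 lines with and without that array. Those values are therefore given as a description, and nothing is concluded from them.

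In translating ribosome affinity purification, a ribosomal protein carries a tag in the cells that use a chosen driver gene, and the tagged ribosomes are pulled from a tissue lysate with the messenger RNA they hold. The study compared cells of the S100a10 line (ES691) with those of the Glt25d2 line (DU9), both described as cortical pyramidal cells, with 3 biological replicates a line and 1 array a replicate. Mice of both lines carried a bacterial artificial chromosome transgene that was backcrossed for 3 to 5 generations from FVB onto C57BL/6. All were untreated, and ages were not given in the sources used here. Each driver is represented by a single line, and the series text states that the S100a10 transgene also marks cells that are not neurons. Glt25d2, a collagen galactosyltransferase of the endoplasmic reticulum, is now named Colgalt2.

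Messages for secreted and membrane proteins are translated on ribosomes that dock at the membrane of the endoplasmic reticulum. The growing chain passes through the Sec61 channel, signal peptidase removes its signal, oligosaccharyltransferase attaches sugars, and chaperones and disulfide isomerases fold it in the lumen. When unfolded protein builds up, the unfolded protein response raises the transcription of many of these genes through the factors ATF6 and XBP1, which act at short promoter sequences called endoplasmic reticulum stress elements. Neurons rely on this pathway for receptors, channels, adhesion proteins and secreted peptides.

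The stress element was a sequence feature shared by part of the set, and the measured values that chose the members did not include it. It is known to act at many genes of this kind, as said above, so its share here is a description and no test. Its first form was searched as CCAAT and CCACG separated by 9 bases, on both strands, in RefSeq promoter windows of 300 bases (250 before and 50 after the start site, GRCm38.p6). Of the 41 members 31 had a window, and 7 of these (22.6%) held the element, against 37 of all 27025 genes (0.137%) with a window, members included. Member windows were also richer in G and C, with a median of 63.7% against 52.7% for all windows. The element of each gene is printed here with 10 bases on either side, 5′ to 3′ on the strand of the gene, and capitals mark its pair of conserved ends, which read CGTGG and ATTGG where it lies in the reverse direction.
Hspa5: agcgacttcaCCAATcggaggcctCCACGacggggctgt
Pdia6: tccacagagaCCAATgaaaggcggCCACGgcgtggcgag
Dnajc3: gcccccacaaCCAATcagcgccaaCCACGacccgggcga
Canx: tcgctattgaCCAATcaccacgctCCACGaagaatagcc
Calr: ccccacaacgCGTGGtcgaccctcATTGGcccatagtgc
Creld2: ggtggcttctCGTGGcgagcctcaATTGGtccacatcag

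The Hspa5 stretch lies at chr2:34772015-34772053 on the plus strand, that of Pdia6 at chr12:17266481-17266519 on the plus strand and that of Dnajc3 at chr14:118937817-118937855 on the plus strand. The Canx stretch lies at chr11:50325790-50325828 on the minus strand, that of Calr at chr8:84847065-84847103 on the minus strand and that of Creld2 at chr15:88819510-88819548 on the plus strand. Hsp90b1 held 2 exact copies in opposite directions within 144 bases, at chr10:86705523-86705666 on the minus strand. They are shown because no other member held more than 1 exact copy.
Hsp90b1: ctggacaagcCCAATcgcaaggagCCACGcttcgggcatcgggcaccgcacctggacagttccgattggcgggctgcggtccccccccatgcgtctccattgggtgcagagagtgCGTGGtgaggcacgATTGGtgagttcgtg
A second form, ATTGG and CCACG separated by 1 base, was found in Dnajb11 alone among the members and in 12 of 27025 genes (0.0444%). It lies just after the start site, at chr16:22857847-22857867 on the plus strand, and is shown with 5 bases on either side.
Dnajb11: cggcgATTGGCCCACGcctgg
The core TGACGTGG bound by ATF6 and XBP1 was found in Txndc5, at chr13:38528035-38528062 on the minus strand, and in 193 of 27025 genes (0.714%).

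For Hspa5, whose promoter is the textbook example of this control, the 250 bases before the start site (chr2:34771840-34772089 on the plus strand) are shown whole. Capitals mark the ends of its exact match.
Hspa5 promoter: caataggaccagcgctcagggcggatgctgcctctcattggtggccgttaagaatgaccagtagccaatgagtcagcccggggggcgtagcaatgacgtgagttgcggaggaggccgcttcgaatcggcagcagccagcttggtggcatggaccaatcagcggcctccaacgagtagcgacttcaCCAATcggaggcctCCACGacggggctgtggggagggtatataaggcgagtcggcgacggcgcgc
Only exact matches were searched, so near matches are neither counted nor put in capitals. A match describes letters in these windows and does not show that a factor binds there.

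The arrays of one line differed from those of the other as a whole. Median intensity of the probe sets was between 20.4 and 21.3 on the Glt25d2 arrays and between 35.5 and 35.8 on the S100a10 arrays, and the median difference over the 11821 genes, S100a10 minus Glt25d2, was 0.56 on the log2 scale. Quantile normalization moved that median to -0.02 and centring each array to -0.21, so a difference between the lines for a member is read against these medians. Values at or above 50, the limit that the series text recommends, made up 38.9% to 46.6% of probe sets on each array, and a lower value is treated as background. With 3 arrays a line, precision is limited by their number. At least 2 Glt25d2 arrays held equal values in 46.8% of all probe sets, but in 0 measured members. Shares and standard errors given for all genes include genes with such ties.

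Driver and cell type genes were checked first. Colgalt2 read 1053, 827 and 1352 on the 3 Glt25d2 arrays and 11.4, 11.7 and 11.7 on the S100a10 arrays, and the third Glt25d2 array was the highest of its line. S100a10 read 3126, 3141 and 3444 on the Glt25d2 arrays and 15496, 17898 and 13064 on the S100a10 arrays. Of 10 pyramidal neuron markers 9 were measured, their summed intensity was 61960, 65978 and 73578 on the Glt25d2 arrays and 77859 to 79658 on the S100a10 arrays, and none was listed at 0. Much of the sum was Snap25 (36210, 40001 and 44643 on the Glt25d2 arrays), and single markers went both ways. In the limma comparison of all 6 arrays described below, 3 passed as higher in S100a10 (44.7% of all genes). Passing as lower were 2 (4.59% of all genes), Fezf2 (mean 2719 in Glt25d2, 1146 in S100a10) and Bcl11b (5970 and 1923). Summed fibroblast and mural cell markers (11 of 12 measured) were 388 to 565 on the Glt25d2 arrays and 11448 to 14041 on the S100a10 arrays. Of the 11, 8 were under 50 on every Glt25d2 array, so the Glt25d2 sums include background values.

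The third Glt25d2 array stood apart from the other 2 of its line, and the line comparison was therefore also fitted without it. On that array all 39 measured members had their lowest value of the 6 arrays, where 23.8% of all genes did. The median member lay -3.03 (log2) from the mean of replicates 1 and 2, with a range of -5.25 to -0.31, whereas the median of all genes was 0.07. The member median was -2.69 when values under 50 were set to 50. More than 2-fold below the mean of the other 2 arrays were 37 of 39 members, against 14.5% of all genes. More than 4-fold below it were 29 members (8.4% of all genes), or 28 of 36 among genes at 200 or more on the other 2 arrays (10.8% of such genes). By the deposited values, more than 16-fold below it were 5 members, Hspa5, P4hb, Pdia3, Pdia6 and Hsp90b1 (0.55% of all genes). On the third array Pdia3 and Ganab read under the limit of intensity, so their folds are bounds, at least 12.2 and 3.82. Pdia3 is thus not shown to pass 16-fold, nor Ganab, one of the 29, to pass 4-fold. The values of the third array chose the members, so the shares describe the set and are no evidence about it. Replicates 1 and 2 differed from each other by a median of 0.13 (log2) over the members and by at most 0.61.

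**Figure D1:**
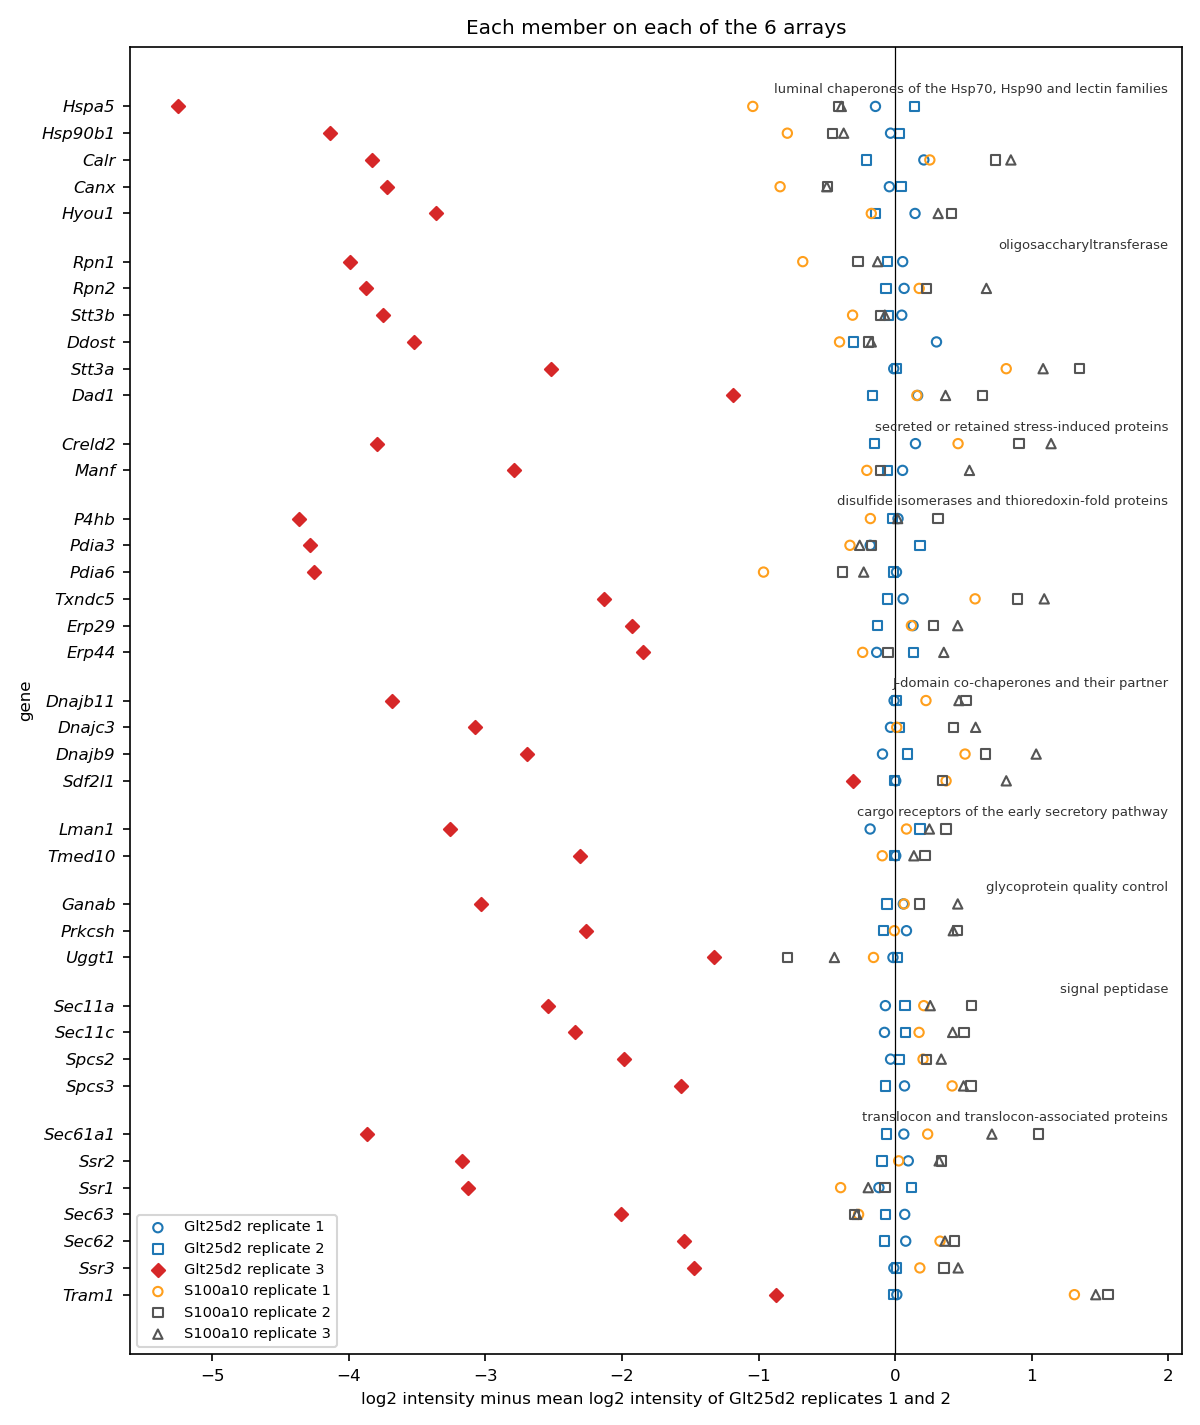
Each measured member on the 6 arrays, as log2 intensity minus the mean log2 intensity of Glt25d2 replicates 1 and 2, grouped by role. The filled diamonds of Glt25d2 replicate 3 lie between -5.25 and -0.31 and are the lowest point of all 39 genes, and in 36 genes the open circle of S100a10 replicate 1 is the lowest of its line.

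Luminal chaperones were the role with the deepest values on the third array, with a median of -3.83 over 5 genes, all more than 4-fold below the other 2. Hspa5, the Hsp70 of the lumen also known as BiP (probe set 1416064_a_at), read 11008, 13441 and 319.6 on Glt25d2 replicates 1 to 3 and 5907, 9130 and 9257 on S100a10 replicates 1 to 3. It was very high on 5 arrays and 38.1-fold lower on the remaining one than on the other 2 of that line, the second lowest difference (-5.25) of 11821 genes. The difference between the lines was 1.13 ± 1.48 (log2, SE) with all 6 arrays and -0.62 ± 0.22 without the third Glt25d2 array. Its sign thus turned with 1 array. Without that array all S100a10 values lay below both Glt25d2 values, and the difference was -0.84 after quantile normalization and -1.37 after centring each array on its median.

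Hsp90b1 (GRP94), the Hsp90 of the lumen, read 11151, 11684 and 648 on the Glt25d2 arrays and 6606, 8297 and 8790 on the S100a10 arrays. Canx (calnexin), the membrane lectin that holds newly glycosylated proteins, read 7886, 8362 and 616 and 4530, 5759 and 5741 in the same order. On the brightest probe set of both genes the third Glt25d2 array was far lower than any other array. There the S100a10 values all lay below Glt25d2 replicates 1 and 2. The Hsp90b1 difference between the lines was 0.84 ± 1.16 with all arrays and -0.54 ± 0.15 without the third, and that of Canx was 0.63 ± 1.05 and -0.61 ± 0.15. Without the third array both kept their negative sign after quantile normalization (-0.75 and -0.86) and after centring (-1.29 and -1.36).

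Calr (calreticulin), the soluble partner lectin of calnexin, differed from the other abundant chaperones. It read 4048, 3025 and 246 on the Glt25d2 arrays and 4173, 5819 and 6295 on the S100a10 arrays, so all S100a10 values lay above the Glt25d2 values whether or not the third array was counted. The difference was 1.89 ± 1.09 with all arrays and 0.61 ± 0.22 without the third, but 0.31 after quantile normalization and -0.14 after centring each array on its median. Hyou1 (GRP170), an exchange factor for BiP, read 512, 419 and 45.1 and 410.4, 617 and 576, and its lines overlapped in both fits on this probe set. On the third array it was under the limit of 50, at least 9.26-fold lower than on the other 2.

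Among 4 J-domain co-chaperones and their partner, which hand substrates to BiP, 3 were more than 4-fold lower on the third array. Dnajb11 (ERdj3) read 526, 531 and 41.1 on the Glt25d2 arrays and 618, 757 and 730.5 on the S100a10 arrays, and Dnajb9 (ERdj4) read 1912, 2174 and 315 and 2907, 3222 and 4171. In both, the S100a10 arrays lay above all Glt25d2 arrays. Without the third array the difference was 0.40 ± 0.13 for Dnajb11 and 0.73 ± 0.18 for Dnajb9. It was -0.17 and -0.35 after quantile normalization and centring for Dnajb11, and 0.38 and -0.015 for Dnajb9, so only the first rescaling kept the sign, and for Dnajb9 alone. Dnajc3 (p58IPK) read 669, 701 and 81.3 and 690.4, 922 and 1030, with lines that overlapped in both fits on this probe set. On its dimmer probe sets past the limit, 1419162_s_at, 1419163_s_at and 1449372_at, all S100a10 values lay above the Glt25d2 values.

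Sdf2l1, a partner of Dnajb11, had the smallest difference of the set on the third array (-0.31). It read 39.7, 39.4 and 31.9 on the Glt25d2 arrays, all under the limit of 50, and 51.2, 50.4 and 69.5 on the S100a10 arrays. The S100a10 mean was therefore at least 1.13-fold higher, a bound that holds for the deposited scaling only. Quantile normalization of the 6 arrays gave a difference of -0.28 and centring -0.15.

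Disulfide isomerases make and exchange the disulfide bonds of folding proteins. P4hb (PDI) read 1938, 1882 and 92.9 on the Glt25d2 arrays and 1684, 2373 and 1934 on the S100a10 arrays. Pdia6 (P5) read 2388, 2356 and 124 and 1216, 1814 and 2022. Pdia3 (ERp57), which works with calnexin and calreticulin, read 536, 689.9 and 31.2 and 483, 538 and 508. All 3 read near or above the S100a10 arrays on Glt25d2 replicates 1 and 2 and far below them on replicate 3, where P4hb was 20.6-fold, Pdia6 19.1-fold and Pdia3, under the limit, at least 12.2-fold below the other 2 arrays. The difference between the lines changed sign with the third array for Pdia3, from 1.17 ± 1.2 to -0.26 ± 0.15, and for Pdia6, from 0.89 ± 1.2 to -0.53 ± 0.22. For P4hb it went from 1.5 ± 1.23 to 0.05 ± 0.16.

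The thioredoxin-fold members Txndc5, Erp29 and Erp44 were 3.59-fold to 4.37-fold lower on the third array. Txndc5 (ERp46) read 340.1, 314 and 74.7 on the Glt25d2 arrays and 490.1, 608 and 696 on the S100a10 arrays, and every S100a10 value was higher. Its difference was 1.57 ± 0.61 with all arrays and 0.86 ± 0.17 without the third, and it kept its sign at 0.24 after quantile normalization and 0.11 after centring each array on its median. Erp29 and Erp44, the latter a retrieval factor for proteins that leave too early, had overlapping lines in both fits with the probe sets used. The dimmer Erp44 probe set 1423247_at did not overlap, with 210, 225 and 33.4 on the Glt25d2 arrays and 285, 349 and 280 on the S100a10 arrays. Pdia4 (ERp72) was under the limit on all arrays, with values of 22.8, 32.8 and 21.7 for the brighter of its 2 probe sets on the Glt25d2 arrays and 42.6, 42.6 and 48.8 on the S100a10 arrays, and it was not tested.

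Manf and Creld2, a pair of stress-induced proteins that are held in the lumen or secreted, had a median of -3.29 on the third array. Creld2 read 515, 419 and 33.5 on the Glt25d2 arrays and 639, 870.4 and 1024 on the S100a10 arrays, without overlap. Manf, a neurotrophic factor, read 2537, 2352 and 354 and 2116, 2267 and 3562, with overlap. The Creld2 difference between the lines was 2.1 ± 1.08 with all arrays and 0.84 ± 0.22 without the third (0.27 after quantile normalization and 0.087 after centring each array on its median).

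The translocon group was spread widely on the third array, from -3.86 to -0.87. Sec61a1, the pore subunit of the channel, read 2593, 2375 and 170.5 on the Glt25d2 arrays and 2927, 5142 and 4055 on the S100a10 arrays, 14.6-fold lower on the third array than on the other 2 of its line. Its S100a10 values lay above the Glt25d2 values, with a difference of 0.67 ± 0.23 without the third array (0.32 after quantile normalization and -0.084 after centring each array on its median). Tram1, a membrane protein next to the channel that helps some signal sequences enter, read 607, 597 and 329 and 1495, 1773 and 1667. It was 1.83-fold lower on the third array and was the only member above 50 on each array that stayed within 2-fold.

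Tram1 also had the largest difference between the lines without the third array. The difference was 1.74 ± 0.26 with all arrays and 1.45 ± 0.13 without the third, with no overlap. It stayed above 0 after quantile normalization (1.21 with all arrays, 0.94 without the third) and after centring (0.97 and 0.70). These values belong to the contrast that chose the members and are given as a description.

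Sec62 and Sec63 form a complex with the channel that serves short and post-translational substrates. Sec62 read 4393, 3946 and 1426 on the Glt25d2 arrays and 5228, 5630 and 5362 on the S100a10 arrays, and Sec63 read 584, 529.7 and 138 and 462, 453 and 458. On the third array they were 2.92-fold and 4.03-fold lower. Without that array the pair lay on opposite sides of 0 with the probe sets used, each without overlap. Sec62 was higher in S100a10 by 0.38 ± 0.12 and Sec63 differed by -0.28 ± 0.11, and both were below 0 after centring (-0.37 and -1.03). Other Sec63 probe sets did not share a direction. On 1419819_s_at (262 and 267, then 324, 346 and 324) and 1424924_at (179 and 198, then 275, 230 and 243) the S100a10 values lay above Glt25d2 replicates 1 and 2. On 1424926_at and 1452854_at they lay below them. The Sec62 probe set 1455698_at overlapped. With all arrays the Sec63 difference was 0.39 ± 0.57.

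The TRAP complex beside the channel is unrelated to the affinity method of the same abbreviation. Its subunit gene Ssr1 read 1460, 1721 and 181 on the Glt25d2 arrays and 1202, 1505 and 1383 on the S100a10 arrays, and its difference turned from 0.82 ± 0.88 to -0.22 ± 0.15 when the third array was left out. Ssr2 and Ssr3 were 8.99-fold and 2.77-fold lower on the third array than on the other 2.

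Oligosaccharyltransferase transfers the sugar chain to the growing protein, with Stt3a or Stt3b as its catalytic subunit. Stt3a, which acts at the channel, read 409.6, 415 and 72 on the Glt25d2 arrays and 725, 1053 and 874 on the S100a10 arrays. Stt3b, which acts on sites that were missed, read 3541, 3311 and 254 and 2759, 3182 and 3250. The S100a10 arrays were above all Glt25d2 arrays for Stt3a, but below Glt25d2 replicates 1 and 2 for Stt3b. The dimmer Stt3b probe set 1426343_at went the other way, with 79.5 and 66.2 on those replicates and 125, 123 and 98.9 on the S100a10 arrays. Stt3a 1423033_at overlapped, with 118 and 173 on replicates 1 and 2 and 125, 128 and 136 on the S100a10 arrays. Without the third array the differences were 1.08 ± 0.17 for Stt3a (0.51 after quantile normalization and 0.33 after centring each array on its median) and -0.16 ± 0.13 for Stt3b (-0.50 and -0.91 under the same rescalings). With all arrays they were 1.92 ± 0.72 and 1.09 ± 1.05.

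The accessory subunits Rpn1 and Ddost also changed sign with the third array. Rpn1 (ribophorin I) read 7682, 7116 and 466 on the Glt25d2 arrays and 4627, 6119 and 6764 on the S100a10 arrays, and Ddost (OST48) read 956, 629 and 67.5 and 585, 677 and 687. Their differences were 0.97 ± 1.12 and 0.92 ± 1.0 with all arrays, and -0.36 ± 0.18 and -0.26 ± 0.20 without the third. Without it the lines overlapped for Ddost and not for Rpn1. Rpn2 was under the limit on the third array alone, at least 8.26-fold below the other 2. Dad1, the small subunit first found as a defender against cell death, was 2.27-fold lower there, with 3123, 2486 and 1225 on the Glt25d2 arrays and 3111, 4336 and 3598 on the S100a10 arrays.

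Signal peptidase had one of the smaller departures, with a median of -2.16 over Sec11a, Sec11c, Spcs2 and Spcs3. Spcs3 read 2270, 2064 and 731 on the Glt25d2 arrays and 2890, 3180 and 3062 on the S100a10 arrays. All S100a10 values lay above the Glt25d2 values in each of the 4 genes, as they did in 6612 of all 11821 genes. The Spcs3 difference was 1.01 ± 0.45 with all arrays and 0.49 ± 0.12 without the third, and it was 0.13 after quantile normalization and -0.26 after centring each array on its median. Sec11a and Sec11c, the alternative catalytic subunits, had differences of 0.34 ± 0.15 and 0.37 ± 0.14 without the third array.

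Of the glycoprotein quality control genes, Ganab and Prkcsh encode the subunits of glucosidase II, which trims glucose from new glycoproteins, and Uggt1 encodes the sensor that puts glucose back on unfolded ones. Uggt1 read 175, 179 and 70.6 on the Glt25d2 arrays and 159, 103 and 130.4 on the S100a10 arrays. It was the only member with a difference below 0 with all arrays (-0.021 ± 0.41), and without the third the S100a10 arrays lay under both others (-0.46 ± 0.19). Ganab was under the limit on the third array, at least 3.82-fold lower, and Prkcsh was 4.8-fold lower there.

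The cargo receptors Lman1 (ERGIC-53) and Tmed10 carry proteins between the endoplasmic reticulum and the Golgi. Lman1 read 269.7, 348 and 31.9 on the Glt25d2 arrays and 324, 396 and 364 on the S100a10 arrays, and Tmed10 read 3121, 3101 and 628 and 2914, 3619 and 3421. On the third array Lman1 was under the limit, at least 6.12-fold lower, and Tmed10 was 4.95-fold lower, while the other 2 arrays overlapped the S100a10 range. Tmed2 was under the limit on all arrays with the 1 probe set that names it alone.

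Over the whole set, the difference between the lines changed more with the third Glt25d2 array than with any other single choice of array. With all 6 arrays 38 of 39 members had a difference above 0 (80.3% of all genes), and the median member was at 1.09 against 0.56 for all genes. Past the limma threshold (adjusted p of 0.05 over 11821 genes) were 2 members higher in S100a10, Tram1 and Sdf2l1, where 44.7% of all genes were called, and 0 lower, where 4.59% were called. The median standard error of a member was 0.86, against 0.17 for all genes. All S100a10 values lay above all Glt25d2 values in 17 of 39 members, against 6612 of 11821 genes.

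Without the third array 28 members were above 0 and 11 below it, 10 of them with the opposite sign to the fit of 6 arrays, and the median member was at 0.26 against 0.51 for all genes. The median standard error of a member was 0.16 and that of all genes 0.15. All S100a10 values lay above the remaining Glt25d2 values in 17 members (7860 of 11821 genes) and below them in 8 members (1313 genes). Then 11 members passed as higher (Calr, Creld2, Dnajb11, Dnajb9, Sdf2l1, Sec61a1, Sec62, Spcs3, Stt3a, Tram1 and Txndc5), against 55.8% of all genes, and Hspa5, Hsp90b1 and Canx passed as lower, against 6.34% of all genes. Since the choice of members used this contrast, nothing is read from these counts.

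**Figure D2:**
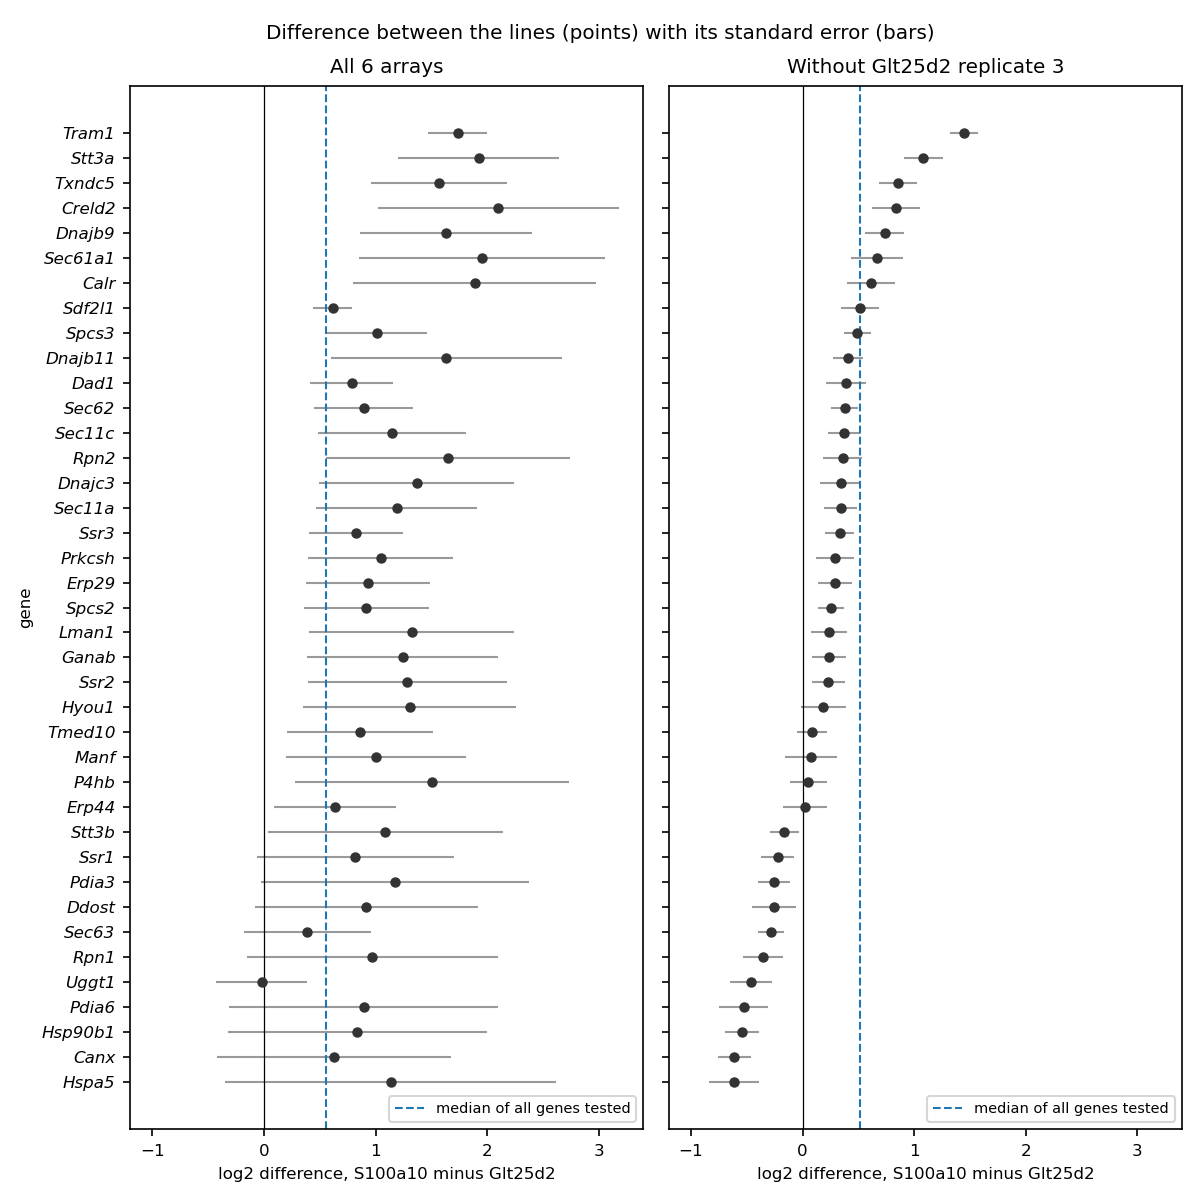
Difference of each measured member between the lines (log2, S100a10 minus Glt25d2; points) with its standard error (bars), with all 6 arrays on the left and without Glt25d2 replicate 3 on the right, in the order of the right panel. The dashed line is the median of all genes (0.56 and 0.51), and Uggt1 alone lies below 0 on the left, where 11 genes do on the right.

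The split between higher and lower also moved with the scaling. After quantile normalization of all 6 arrays 1 member, Tram1, was called higher (18.7% of all genes) and 0 lower (19% of all genes). After centring the counts were again 1 (16.6% of all genes) and 0 (31.8% of all genes). Without the third array, quantile normalization gave Tram1 as higher (24.1% of all genes) and 13 members as lower (23.7% of all genes), and centring gave Tram1 as higher (20.3% of all genes) and 23 members as lower (39.3% of all genes). The median member was then at -0.28 after quantile normalization and at -0.49 after centring, where the medians of all genes were -0.03 and -0.23. With the probe sets used, Hspa5, Hsp90b1 and Canx were below 0 in all 3 scalings without the third array. Other probe sets of these genes did not all share that direction. Hspa5 1427464_s_at read 2856 and 4146 on Glt25d2 replicates 1 and 2 and 2014, 2512 and 3365 on the S100a10 arrays, with overlap. Hspa5 1447824_x_at (given below) and Canx 1422845_at (141 and 145, then 139, 107 and 176) overlapped too. Hsp90b1 1438040_a_at and Canx 1428935_at lay lower in S100a10 without overlap.

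The S100a10 arrays did not enter the comparison of Glt25d2 arrays, but they did enter the difference between the lines that also chose the members. Among the S100a10 arrays replicate 1 was the lowest in 36 of 39 members, where this held for 31.7% of all genes. Replicate 2 was the lowest in 3 members, Sdf2l1, Sec63 and Uggt1 (31.8% of all genes), and replicate 3 in 0 (36.4% of all genes). The departure was small: replicate 1 minus the mean of replicates 2 and 3 had a member median of -0.29 (log2), with a range of -0.65 to 0.46, against 0.03 for all genes. Other genes that were low on the third Glt25d2 array shared it: of 964 genes outside the set that were more than 4-fold lower there, 85.5% had their lowest S100a10 value on replicate 1, with a median departure of -0.34. Replicate 1 was likewise the lowest in 24 of 28 other luminal folding genes and 15 of 21 genes for the degradation of endoplasmic reticulum proteins. It was largest for Pdia6 (-0.65), Sec61a1 (-0.64) and Hspa5 (-0.64). The members' departures on the third Glt25d2 array and on S100a10 replicate 1 had a Pearson correlation of 0.53 and a Spearman correlation of 0.51 over 39 genes, and over all 11821 genes the values were 0.49 and 0.46. These are correlations across genes within single arrays, and genes are not independent replicates.

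**Figure D3:**
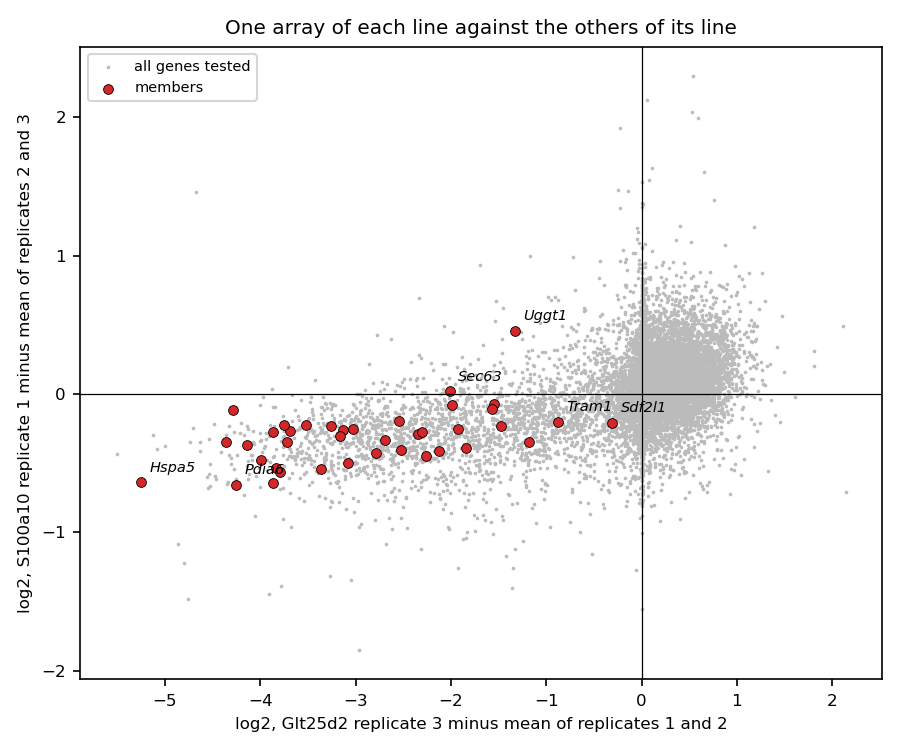
One array of each line against the others of its line: Glt25d2 replicate 3 minus the mean of replicates 1 and 2 (horizontal, log2) and S100a10 replicate 1 minus the mean of replicates 2 and 3 (vertical, log2), for all 11821 genes (grey) and the 39 measured members (filled circles with an outline). Members lie to the left of 0 without exception, and all except Uggt1 (0.46) and Sec63 (0.02) lie below 0 on the vertical axis.

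Different probe sets of a member differed in size on the third array. In 12 of 21 members with several probe sets past the limit they lay 0.5 (log2) or more apart, as for Uggt1 at -1.33 and -3.4, and in 9 members they were closer. Of 76 member probe sets past the limit, 67 were more than 2-fold lower on the third array and 52 more than 4-fold lower. Of the 9 others, 6 had a mean under 100 on Glt25d2 replicates 1 and 2. One of the remaining 3 was a second Hspa5 probe set (1447824_x_at), which read 842, 771 and 815 on the Glt25d2 arrays and 819, 894 and 978 on the S100a10 arrays, a difference of 0.02 on the third array against -5.25 for the probe set used above. Which transcript each of them reports was not tested. Sec63 likewise had 1424924_at at 179, 198 and 134 on the Glt25d2 arrays, and Tram1 has a single probe set past the limit.

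Other genes of the pathway, from lists that leave the members out, showed on the third array which steps were low with them. Of 28 other luminal folding genes 24 were more than 2-fold lower and 14 more than 4-fold lower, with a median of -1.98. Ppib, the cyclophilin of the lumen, read 7066, 5563 and 387 on the Glt25d2 arrays and 5453, 7450 and 8339 on the S100a10 arrays. Of 18 other translocation and glycosylation genes 13 and 6 were past these folds, with a median of -1.52. Of 21 genes for the degradation of endoplasmic reticulum proteins 11 and 8 were past them (median -1.09), and of 21 genes of the unfolded protein response 8 and 2 (median -0.84). Among 30 vesicle coat and sorting genes the counts were 10 and 6 (median -0.07), and among 7 genes of the signal recognition particle and its receptor 2 and 1 (median 0.01).

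Chaperones of other compartments were near 0. Of 25 cytosolic chaperones 1 was more than 2-fold lower on the third array, the small heat shock protein Hspb1, and the median was 0.00. Hspa8, the cytosolic counterpart of Hspa5, read 40953, 40206 and 38894 on the Glt25d2 arrays and 37996, 41602 and 41680 on the S100a10 arrays. Of 19 mitochondrial chaperones and import genes 0 were more than 2-fold lower, with a median of 0.11, and the mitochondrial Hsp70 gene Hspa9 read 8524, 9052 and 8469 on the Glt25d2 arrays.

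**Figure D4:**
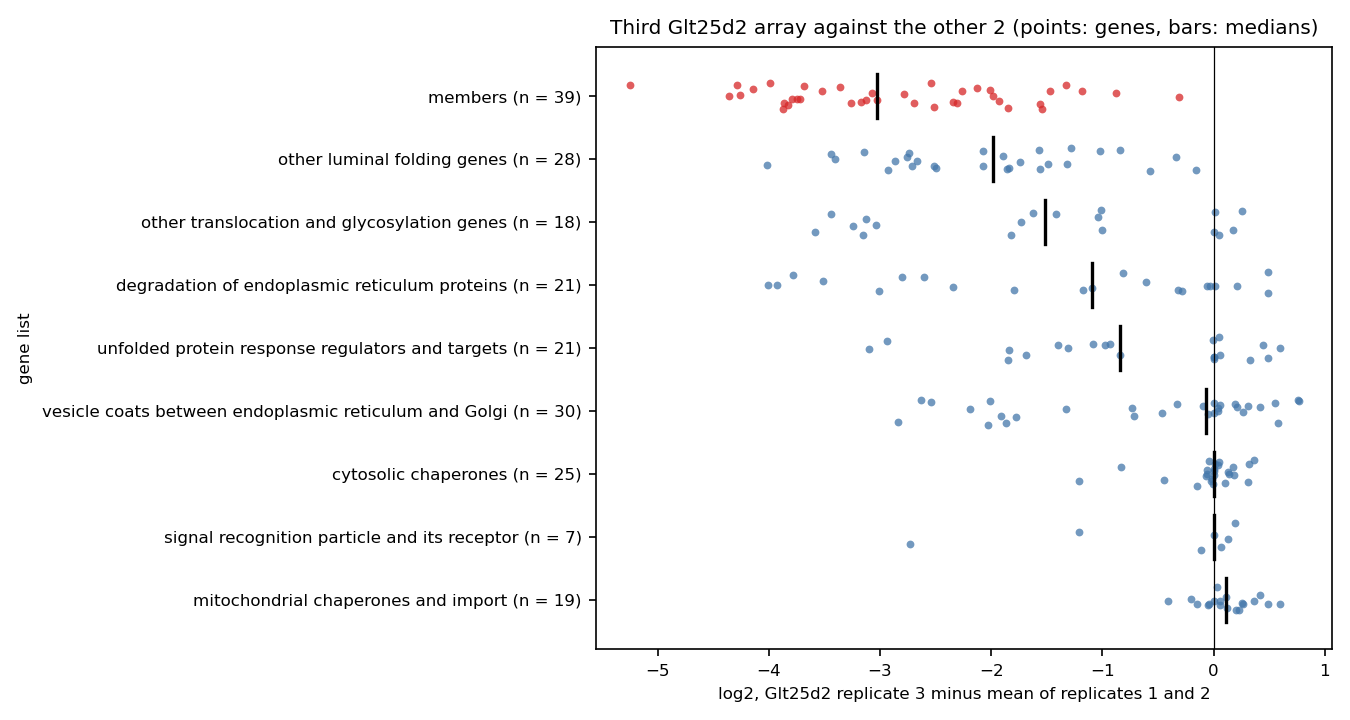
Glt25d2 replicate 3 minus the mean of replicates 1 and 2 (log2) for each measured gene (points) of the members and of 8 pathway lists that do not contain them, with the median of each list as a black bar. The medians run from -3.03 for the members and -1.98 for other luminal folding genes to 0.00 for cytosolic chaperones and 0.11 for mitochondrial ones, and the lists between them reach from values below -2 to values near 0. Values under 50 are plotted as deposited.

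Several lists were spread widely within themselves. Of the signal recognition particle list, the receptor subunit genes Srprb and Srpr were at -2.73 and -1.21 on the third array, and the genes of the particle itself, Srp9, Srp14, Srp19, Srp68 and Srp72, were between -0.11 and 0.19. In the coat list the genes more than 2-fold lower were Tmed3, Tmed4, Tmed5, Tmed7, Tmed9, Kdelr1, Kdelr2, Surf4, Ergic1 and Ergic3, from -2.84 (Tmed7) to -1.32 (Ergic1), and the other 20, most of them coat subunits, were between -0.73 (Ergic2) and 0.76 (Sec24a). In the degradation list Sel1l and Syvn1, partners in one ubiquitin ligase complex, were lowest at -4.0 and -3.93. The conjugating enzyme gene Ube2j1, with 3234, 3323 and 4587 on the Glt25d2 arrays, and Ufd1 were highest at 0.48 and 0.49, and Edem1 was at -0.28.

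Of the 21 unfolded protein response genes, Eif2ak3 (PERK), Wfs1, Ern1 (IRE1), Mbtps1, Mbtps2, Atf6b, Xbp1 and Creb3 were more than 2-fold lower on the third array, from -3.1 (Eif2ak3) to -1.09 (Creb3). The other 13 were between -0.98 (Atf6) and 0.59 (Crebrf). Among them the transcription factor genes Atf4 and Ddit3 (CHOP) were at 0.061 and 0.05, with Atf4 reading 9929, 9678 and 10228 on the Glt25d2 arrays. Xbp1 read 3271, 2883 and 1242 on the Glt25d2 arrays and 5669, 6065 and 6743 on the S100a10 arrays. Of the channel genes, Sec61b was at 0.016, with 3730, 3335 and 3566 on the Glt25d2 arrays, and the pore subunit genes Sec61a1 and Sec61a2 were at -3.86 and -3.58. The genes named in this comparison of lists were picked after their values were seen.

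The same lists gave these calls between the lines with all 6 arrays (limma, Benjamini-Hochberg over all genes), beside the 44.7% and 4.59% of all genes called higher and lower in S100a10. Higher were 10 of 28 other luminal folding genes, 8 of 18 translocation and glycosylation genes, 5 of 21 degradation genes, 10 of 21 unfolded protein response genes, 7 of 30 coat genes, 2 of 7 signal recognition particle genes, 4 of 25 cytosolic chaperones and 4 of 19 mitochondrial genes. Lower were 2 unfolded protein response genes, 2 coat genes, 1 degradation gene, 1 signal recognition particle gene and 8 cytosolic chaperones. Without the third Glt25d2 array (55.8% and 6.34% of all genes) the counts higher were 15, 8, 10, 12, 13, 3, 5 and 4 in the same order, and 3 unfolded protein response genes, 0 coat genes, 1 degradation gene, 1 signal recognition particle gene and 7 cytosolic chaperones were lower. Other arrays moved the counts downwards when left out: the luminal folding genes called higher were 5 without any one S100a10 array, the degradation genes 3 without S100a10 replicate 2 or 3, the coat genes 4 without Glt25d2 replicate 2, the translocation and glycosylation genes 5 without S100a10 replicate 3, the signal recognition particle genes 0 without Glt25d2 replicate 2 or S100a10 replicate 3, and the cytosolic chaperones 2 without S100a10 replicate 1. The cytosolic chaperones called lower were 2 without Glt25d2 replicate 2, 4 without Glt25d2 replicate 1 and 5 without S100a10 replicate 1 or 2.

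Called higher with all 6 arrays (log2 difference ± SE) were Serpinh1, the collagen chaperone (3.33 ± 0.26, adjusted p = 0.000227), Fkbp7, a luminal prolyl isomerase (3.34 ± 0.55, adjusted p = 0.00419), and Dnajc1 (2.15 ± 0.38, adjusted p = 0.00538). Serpinh1 read 60.1, 71.7 and 51.9 on the Glt25d2 arrays and 441, 819 and 634 on the S100a10 arrays.

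Of the translocation and glycosylation genes, Magt1, an oligosaccharyltransferase subunit (2.58 ± 0.34, adjusted p = 0.00168), and Alg2, a mannosyltransferase that builds the sugar chain (2.13 ± 0.47, adjusted p = 0.0126), were called higher in S100a10. Tram2, a relative of Tram1, was under 50 on all Glt25d2 arrays and at least 1.08-fold higher in S100a10. Likewise the stress-activated factor Creb3l2 was at least 3.14-fold and the retrieval receptor Kdelr3 at least 1.43-fold higher. The oxidative stress factor Nfe2l2 (3.81 ± 0.26, adjusted p = 0.000134) and the protease Mbtps1, which cleaves ATF6 (2.54 ± 0.53, adjusted p = 0.0103), were higher. So were the degradation genes Edem1 (1.42 ± 0.14, adjusted p = 0.000527), Edem2 (1.09 ± 0.30, adjusted p = 0.0273) and Ube2g2 (0.77 ± 0.11, adjusted p = 0.00278), and the transport genes Ergic3 (1.59 ± 0.52, adjusted p = 0.0483) and Sec24d (1.47 ± 0.15, adjusted p = 0.000611). Edem1 and Dnajc1 held equal values on Glt25d2 replicates 1 and 2 (104.83 and 59.8358), and Sec24d on all 3 Glt25d2 arrays (183.588). Of the genes named below, Srp14 did so on replicates 1 and 2 (16168.1), Srp72 on 2 and 3 (3078.22) and Clpp on 1 and 3 (2278.25). Between such arrays the standard error holds no spread. Magt1 (38.8) and Edem2 (32.0) were under the limit of 50 on the third Glt25d2 array, and Edem2 also on replicate 1 (49.6). The size of these 2 differences rests in part on background values.

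Outside the endoplasmic reticulum, Hspb1 (2.18 ± 0.40, adjusted p = 0.00659) and the co-chaperone gene Bag3 (1.99 ± 0.23, adjusted p = 0.00111) were higher in S100a10, and the chaperonin subunit gene Cct3 was lower (-0.67 ± 0.092, adjusted p = 0.00208). Bag3 held the same value (103.33) on all 3 Glt25d2 arrays, so its spread came from the S100a10 arrays. The signal recognition particle genes Srpr (1.38 ± 0.37, adjusted p = 0.0242) and Srp14 (0.31 ± 0.084, adjusted p = 0.026) were higher and Srp72 lower (-0.42 ± 0.11, adjusted p = 0.0259). Of the mitochondrial list, Tomm40 (1.73 ± 0.18, adjusted p = 0.00069), Tomm20 (0.63 ± 0.15, adjusted p = 0.0153) and Clpp (0.58 ± 0.097, adjusted p = 0.00452) were higher. Without the third Glt25d2 array each of these genes kept its call, but the difference was 2.71 ± 0.17 for Fkbp7, 1.92 ± 0.14 for Mbtps1 and 1.0 ± 0.17 for Ergic3, each a fold change more than 1.5 times smaller. The calls of Edem2, Srpr, Srp14, Srp72, Ergic3, Alg2 and Tomm20 ended when one or another of the remaining 5 arrays was left out. All these values are on the deposited scale, on which the median gene is 0.56 higher in S100a10. After quantile normalization Edem2, Ube2g2, Tomm20, Clpp, Srpr, Srp14 and Ergic3 were no longer past the threshold, and after centring Tomm20 (-0.14), Clpp (-0.19) and Srp14 (-0.46) were below 0, Srp14 as a call in that direction.

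Members with and without the stress element overlapped on the third array, whose values chose the members. The 7 with it had a median of -3.83 there, with a range of -5.25 (Hspa5) to -3.07 (Dnajc3, close to the median of all members), and 23 measured members with a window and without the element had a median of -2.52 and a range of -4.36 (P4hb) to -0.31. Without the third array the difference between the lines had a median of -0.53 in the 7 (range -0.62 to 0.84) and of 0.26 in the 23 (range -0.46 to 1.08). On S100a10 replicate 1 the medians were -0.54 and -0.26. The ranges overlapped in each case, and these are descriptions of a set chosen on such values.

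Markers of cell types other than neurons were also lower on the third array in part. The summed endothelial markers (3 of 8 measured, none at 0) were 996, 930 and 230 on the Glt25d2 arrays and 168 to 184 on the S100a10 arrays, with Cldn5 at 400.2, 239 and 46.3 on the Glt25d2 arrays. The summed astrocyte markers (8 of 8) were 14992, 17729 and 11010 on the Glt25d2 arrays, the oligodendrocyte markers (7 of 8) 18142, 23871 and 17418, and the microglial markers (5 of 7) 520, 629 and 320. Within the astrocyte list Slc1a3, Gja1, Gjb6 and Aqp4, which encode membrane proteins, were at -4.0, -3.68, -2.5 and -2.47, and Aldoc, S100b, Aldh1l1 and Gfap, which encode cytoplasmic proteins, at -0.16, 0.36, 0.024 and 0.25. Of 9 pyramidal neuron markers the vesicular transporter Slc17a7 alone was more than 2-fold lower, at -1.56. On the third array Slc1a3 (14.8), Gjb6 (19.7), Aqp4 (49.8), Slc17a7 (46.1) and Cldn5 were under the limit of 50. The size of their differences there therefore rests on background values, whereas Gja1 (349) was above the limit. The part of these cell types in the members' values was not tested, and fewer cells of a type and less RNA per cell cannot be told apart in such samples.

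RNA quality was read from control probe sets at both ends of a transcript. The log2 ratio of the 3′ to the 5′ Gapdh probe set was 1.71 on it, 1.84 to 2.04 on the other Glt25d2 arrays and 1.52 to 1.78 on the S100a10 arrays. For Actb the ratio was 1.94 on it, 2.20 to 2.33 on the other Glt25d2 arrays and 2.04 to 2.41 on the S100a10 arrays, the third Glt25d2 array being the lowest of the 6 for Actb only. Their part in the members' values was not tested.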

How the data were processed

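Ribosome-bound RNA (15 ng a sample) was amplified in 2 cycles and hybridised to Affymetrix arrays of 45101 probe sets, per the labels' protocols. The authors deposited linear intensities normalized with GCRMA, per the submitters' processing notes. Here log2 was taken with no pseudocount. Probe sets that name 1 gene and average 50 or more in either line were kept, and the brightest by mean log2 represented each gene. Lines were compared with limma 3.58.1 in R 4.3.3 (lmFit, eBayes, 2-sided, Benjamini-Hochberg over 11821 genes), tested on simulated data. Nothing says how animals were assigned to replicates, so p-values measure the spread between these arrays. The members, gene lists and motifs were chosen with earlier results of these data known. No p is printed for a member, since that contrast chose the members. Named genes were members whose call or direction differed between the fits or that passed in both, others for their role, and up to 3 called genes of each list. Alternatives were other filters, a pseudocount of 16, quantile normalization, centring, the replicate block, averaged probe sets and each array left out. Tables and plots used Python 3.11.15 with pandas 2.3.3, numpy 2.4.6 and, for plots, matplotlib 3.10.9.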

Additional observations from a re-analysis of the deposited data

How the results depend on the processing

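Over the 39 measured members, counts below the other Glt25d2 arrays were 37 (2-fold) under each alternative tried and 26 to 30 (4-fold). Members called higher with all 6 arrays were 1 with both group means at 50 or more, after quantile normalization, after centring and with the replicate block, and 1 to 11 with each array left out in turn; members called lower were 0 to 3, 0 except without Glt25d2 replicate 3. Without Glt25d2 replicate 3, quantile normalization gave 1 higher, 13 lower and a median member at -0.28, centring 1 higher, 23 lower and a median at -0.49, and the replicate block 6 higher and 4 lower; leaving out a further array gave 4 to 15 higher and 1 to 3 lower. Correlations of same-numbered arrays, as deviations from their line means, were -0.49, 0.27 and -0.26. Deviations from a mean of 3 arrays sum to 0, so 1 outlying array shapes all of these values. Glt25d2 replicate 3 with S100a10 replicate 1 was at 0.49. The check can therefore neither show nor exclude pairing.

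Members changed sign under some settings, and the cause was not tested; values are log2 differences between the lines. In the fit of 6 arrays, centring gave Canx -0.14, Erp44 -0.13, Sdf2l1 -0.15 and Sec63 -0.38, quantile normalization Erp44 -0.12, Sdf2l1 -0.28 and Sec63 -0.32, and averaging probe sets of a gene Uggt1 0.46. Over the fits that leave out each array in turn, the lowest and highest values were -0.61 and 1.27 for Canx, -0.26 and 1.65 for Ddost, -0.54 and 1.54 for Hsp90b1, -0.62 and 2.08 for Hspa5, -0.26 and 1.98 for Pdia3, -0.53 and 1.61 for Pdia6, -0.36 and 1.66 for Rpn1, -0.28 and 0.76 for Sec63, -0.22 and 1.4 for Ssr1, -0.16 and 1.74 for Stt3b, and -0.46 and 0.21 for Uggt1; the lowest came without Glt25d2 replicate 3 for every one of these genes, and Uggt1 was above 0 without Glt25d2 replicate 1 or 2 or without S100a10 replicate 2.

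In the fit without Glt25d2 replicate 3, centring gave Calr -0.14, Dad1 -0.36, Dnajb11 -0.35, Dnajb9 -0.015, Dnajc3 -0.41, Erp29 -0.46, Erp44 -0.73, Ganab -0.52, Hyou1 -0.56, Lman1 -0.51, Manf -0.67, P4hb -0.70, Prkcsh -0.46, Rpn2 -0.39, Sdf2l1 -0.24, Sec11a -0.41, Sec11c -0.38, Sec61a1 -0.084, Sec62 -0.37, Spcs2 -0.49, Spcs3 -0.26, Ssr2 -0.52, Ssr3 -0.42 and Tmed10 -0.66. Quantile normalization gave Dnajb11 -0.17, Dnajc3 -0.20, Erp29 -0.18, Erp44 -0.62, Ganab -0.48, Hyou1 -0.40, Lman1 -0.42, Manf -0.28, P4hb -0.34, Prkcsh -0.33, Rpn2 -0.24, Sdf2l1 -0.35, Sec11a -0.053, Spcs2 -0.029, Ssr2 -0.32, Ssr3 -0.012 and Tmed10 -0.25. The replicate block gave Erp44 -0.15 and Manf -0.16, and averaging probe sets Ssr1 0.24 and Stt3b 0.25. Over the fits that leave out a further array, they were -0.56 and 0.044 for Ddost, -0.15 and 0.16 for Erp44, -0.16 and 0.22 for Manf, and -0.081 and 0.17 for P4hb; with Glt25d2 replicate 1 or 2 also out, the lone Glt25d2 array is assumed to vary like the S100a10 arrays. Signal over background limits the 8 members under 50 on Glt25d2 replicate 3, whose differences there are bounds. The restriction to genes at 200 or more, and values under 50 set to 50, which gave 37 and 28, were chosen after seeing the data, as was leaving out each array for the pathway lists.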
